A study of Homo sapiens with 74 samples.

Results

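Human cells take up, store, export and sense iron with a small set of proteins, and 10 of their genes were followed here by poly(A) RNA-seq in K562 and HEL leukaemia cells lacking or depleted of DOT1L, the enzyme that methylates lysine 79 of histone H3. The members were TFRC, TFR2, STEAP3 and SLC11A2 for uptake, FTH1 and FTL for storage, SLC40A1 for export, IREB2 and ACO1 for sensing, and HMOX1 for release of iron from haem. They were taken by symbol, and all 10 were found among the 28131 genes of each deposited table. The series asks what the DOT1L complex does in transcription. K562 is an erythroleukaemia line grown from a chronic myeloid leukaemia, and HEL is an erythroleukaemia line. The 5 RNA-seq groups were K562 control cells (wild type), K562 DOT1L knockout cells (DOT1L-/-), K562 ENL knockout cells (ENL-/-; ENL, encoded by MLLT1, is a reader of acylated histones that is found in complexes with DOT1L), HEL control cells and HEL cells with DOT1L knockdown. Clonal origin of the knockout lines and the knockdown reagent are not given in the sources used here.

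Iron bound to transferrin enters an erythroid cell through the transferrin receptor TFRC, is reduced in the endosome by STEAP3 and crosses the endosomal membrane through SLC11A2 (DMT1). Iron that is not sent to mitochondria for haem and iron-sulfur clusters is kept in ferritin, a shell of heavy (FTH1) and light (FTL) chains, or leaves the cell through ferroportin (SLC40A1). When iron is scarce, the iron regulatory proteins, IREB2 and the cytosolic aconitase ACO1, bind hairpins called iron-responsive elements: binding near the 5′ end of ferritin, ferroportin and ALAS2 mRNAs blocks their translation, and binding in the 3′ part of TFRC mRNA stabilises it. Red cell precursors are the heaviest iron users of the body, and both cell lines express erythroid genes.

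The K562 table counted fragments and held 9 columns, 3 for each group. Its control columns 2 and 3 were identical in all 28131 genes and were counted as 1 library, which left 2 control, 3 DOT1L knockout and 3 ENL knockout libraries of 15404944 to 29236703 fragments. The HEL table counted reads in 2 control and 2 knockdown libraries of 12151495 to 12811688 reads. No label says that replicates came from separate cultures, so p-values measure only the spread between these libraries, which may be technical; the biological coefficient of variation was 6.34% in K562 and 1.83% in HEL. The labels of the control and DOT1L knockout K562 libraries carry a common lane name and those of the ENL knockout do not, so a batch and the loss of ENL cannot be told apart. Levels are CPM, the count of a gene scaled to a common library total with TMM factors, and levels are compared between genes only as CPM per kilobase of exon. The targeted genes followed the labels. In K562 libraries the DOT1L level was 182 ± 5.14 CPM (SD, n = 3) in the DOT1L knockout against 263 ± 9.83 CPM (n = 2) in controls, and the MLLT1 level was 154 ± 1.92 CPM in the ENL knockout against 216 ± 3.56 CPM. In HEL, DOT1L stood at 29.5 ± 0.641 CPM after knockdown against 92.4 ± 7.11 CPM. The DOT1L row shares 661 exonic bases with PLEKHJ1 on the opposite strand. The deleted bases are not given in the sources used here, so counts over a whole gene check the labels only in part.

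The sequence that ties ferritin to the sensing proteins could be read for FTL, since the element lies within the RefSeq promoter window (250 bases before to 50 after the start). A search for a C, 5 stem bases, the loop CAGTG with 1 further base, and 5 bases pairing with the stem found it in 37 of 35116 windows on the strand of the gene (0.1054%), and in 8 of them it lay after the start. One of those 8 was FTL, at chr19:48965341-48965357 on the plus strand of GRCh38.p14, bases 33 to 49 of the transcript, in exon sequence before the coding part. The element of ALAS2, the erythroid enzyme that begins haem synthesis, is at chrX:55030947-55030963 on the minus strand, bases 15 to 31. Both are shown 5′ to 3′ as DNA with the first 5 loop bases in capitals.
FTL element: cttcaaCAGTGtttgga
ALAS2 element: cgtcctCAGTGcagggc
The 5 loop bases in capitals were required by the search, and the further loop base and the stems differ between the elements. A match is a description of the letters, and binding was not measured.

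Promoter windows were present for 7 of the 10 members, with 11 start sites among them; TFR2, FTH1 and HMOX1 had none. GGGCGG, the GC box bound by SP1-type factors, was found on either strand within 250 bases before a start in all 7 of these genes (7 of 11 windows), against 42.64% of all 35116 windows. ACO1 had 6 such matches in its window, TFRC, SLC40A1 and STEAP3 had 3 each, FTL and IREB2 had 2 each, and SLC11A2 had 1 in its 4 windows. Other motifs were searched in the same bases on both strands. The GATA site AGATAA was in 9.167% of all windows and, of the members, in SLC11A2 alone. A TATA box (TATAAA) was in 10.72% of all windows and, of the members, in TFRC alone. No member window held the core of an antioxidant response element (TGACNNNGC; 10.91% of all windows), the other GATA site searched (TGATAA; 6.655%) or the E-box bound by MYC and USF factors (CACGTG; 6.345%). The 120 bases upstream of the deposited gene start are shown for 4 members. TFRC and FTL among them had the same direction of change in each comparison with a control. The stretches are from RefSeq on GRCh38.p14, 5′ to 3′ on the strand of the gene, with GGGCGG or its complement in capitals.
TFRC, chr3:196082162-196082281, minus strand: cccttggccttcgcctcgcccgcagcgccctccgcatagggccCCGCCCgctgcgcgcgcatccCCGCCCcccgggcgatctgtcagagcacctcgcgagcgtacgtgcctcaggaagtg
FTL, chr19:48965189-48965308, plus strand: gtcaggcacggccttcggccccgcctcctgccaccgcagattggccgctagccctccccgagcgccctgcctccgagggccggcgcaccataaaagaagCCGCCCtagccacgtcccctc
SLC40A1, chr2:189580812-189580931, minus strand: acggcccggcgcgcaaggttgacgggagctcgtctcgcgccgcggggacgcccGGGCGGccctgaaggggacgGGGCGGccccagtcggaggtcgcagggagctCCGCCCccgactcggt
ACO1, chr9:32384483-32384602, plus strand: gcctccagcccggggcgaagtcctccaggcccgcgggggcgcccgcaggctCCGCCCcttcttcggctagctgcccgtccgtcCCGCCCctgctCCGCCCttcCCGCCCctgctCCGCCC
The stretches hold 2, 1, 3 and 5 matches in that order, and the ACO1 stretch carries its 5 in the part nearest the gene. Motifs were searched before the RefSeq start, and the stretches end at the deposited start. The deposited start lies 71 bases further upstream for TFRC, 25 for SLC40A1 and 40 for ACO1. The TATA box and 1 GC box of TFRC, 33 and 47 bases before its RefSeq start, therefore lie outside its stretch. So does the ACO1 match 12 bases before its RefSeq start.

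In every group the light and heavy ferritin chains had the highest level per kilobase, followed by TFRC. In K562 controls the mean level was 2680 ± 226 CPM per kb for FTL, 1326 ± 0.0559 for FTH1 and 437 ± 21.5 for TFRC (SD, n = 2), and the next gene, TFR2, was at 45.3 ± 3.69. IREB2 (24.1 ± 1.69), SLC40A1 (17.9 ± 0.426), STEAP3 (16.0 ± 0.458), ACO1 (14.2 ± 0.171) and SLC11A2 (7.05 ± 0.270) followed in CPM per kb, and HMOX1 had no count. HEL controls had the same 3 genes at the top, at 1503 ± 31.6 CPM per kb for FTL, 341 ± 8.26 for FTH1 and 226 ± 0.116 for TFRC, but SLC40A1 (95.9 ± 2.85) and ACO1 (48.0 ± 0.0300) stood higher in the order than in K562. Neighbours in the order were separated in every library of each group, with 1 exception: ACO1 and SLC11A2 overlapped in the K562 DOT1L knockout, at 8.98 ± 0.636 and 8.28 ± 0.414 CPM per kb (n = 3). FTH1 and FTL together took 0.330% to 0.405% of all counts in K562 libraries and 0.169% to 0.220% in HEL libraries. Levels of the lines are set side by side without a test, because their tables were counted differently.

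**Figure D1:**
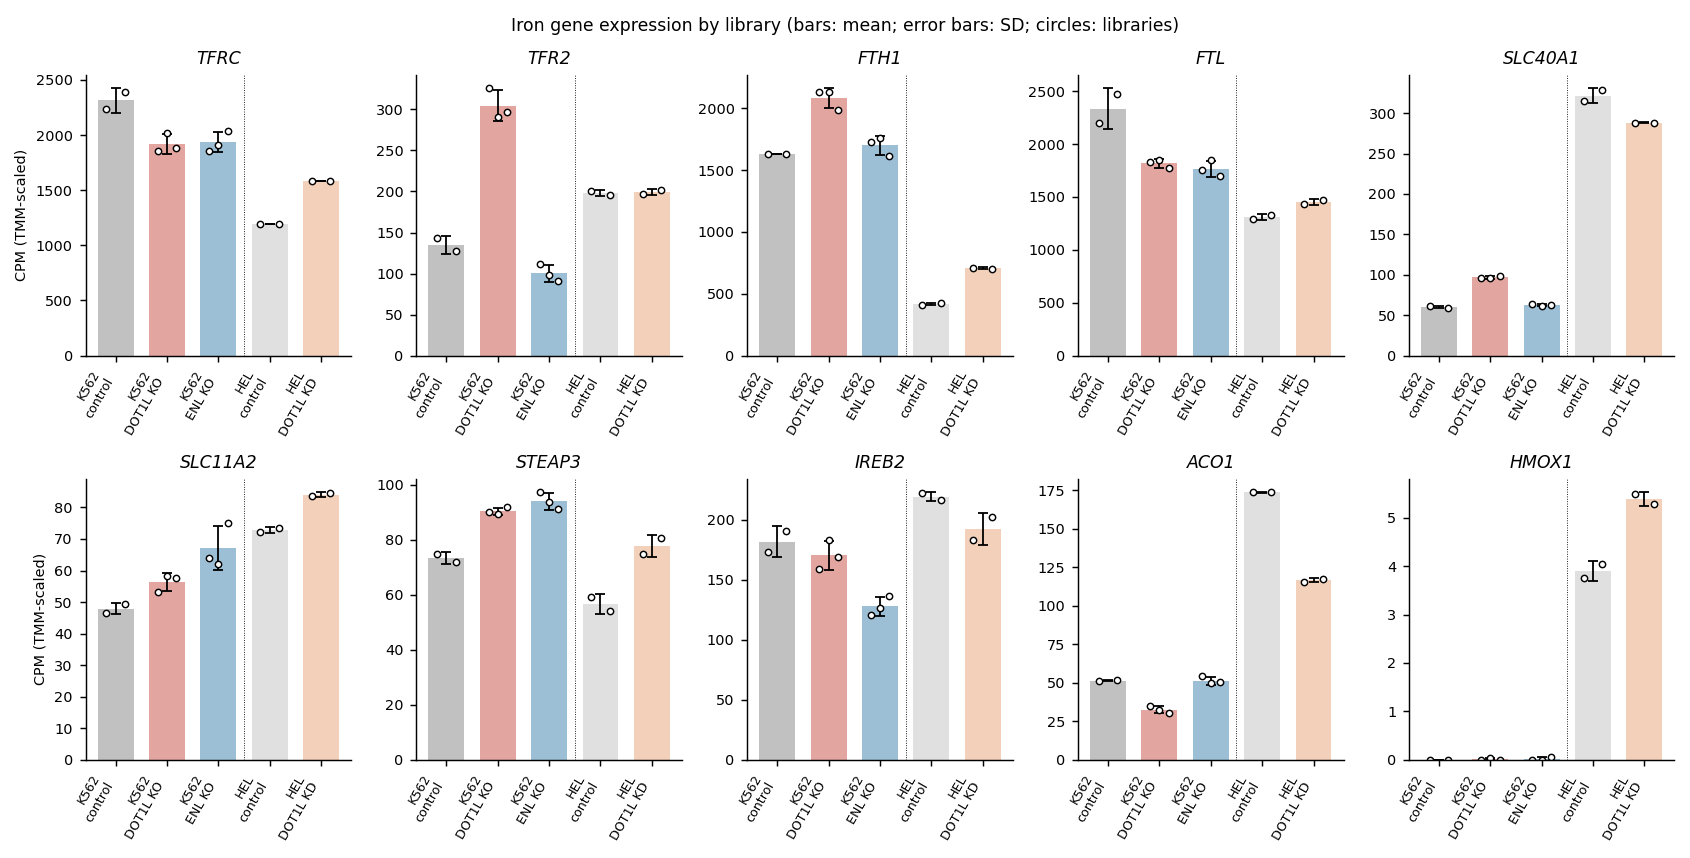
TMM-scaled CPM of the 10 iron genes in 12 distinct libraries; each panel is a gene with its own axis from 0, bars are group means, error bars are SDs, circles are libraries, and the dotted line parts K562 from HEL. TFR2 is highest in the 3 K562 DOT1L knockout libraries (291 to 326 CPM), ACO1 is lowest there (30.3 to 34.9 CPM), and HMOX1 is at or near 0 in K562.

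Most of these genes differed from control after loss or depletion of DOT1L, and 6 of 9 after loss of ENL. In K562 DOT1L knockout cells 5 members rose and 3 fell of 9 tested (edgeR quasi-likelihood test, Benjamini-Hochberg adjusted p under 0.05 over all 14301 genes tested); among all genes tested 51.1% passed, 26.9% higher and 24.2% lower. In ENL knockout cells 2 rose and 4 fell of 9, against 41.0% of all genes, 18.8% higher and 22.2% lower. Between the knockouts 6 of 9 differed, 4 higher and 2 lower in the DOT1L knockout, against 60.2% of all genes, 31.8% higher and 28.3% lower. In HEL DOT1L knockdown cells 6 rose and 3 fell of 10, against 55.0% of 12635 genes, 27.0% higher and 28.0% lower. In each of these 4 comparisons the members past the threshold were also those whose groups did not overlap. Both come from the same values, and the share of all genes without overlap was not counted. With so many genes changed in the background, the count of members called in the direct comparison of the knockouts was close to the share of all genes. The members' median log2 fold change was 0.23, -0.0010, 0.042 and 0.18 in that order, beside medians of 0.011, 0.0028, 0.00029 and 0.013 for all genes tested. In HEL, 49.07% of the 6951 genes called with TMM scaling were higher, and 61.45% of the 7180 genes called with upper-quartile scaling. Both comparisons with the K562 control share its 2 libraries.

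**Figure D2:**
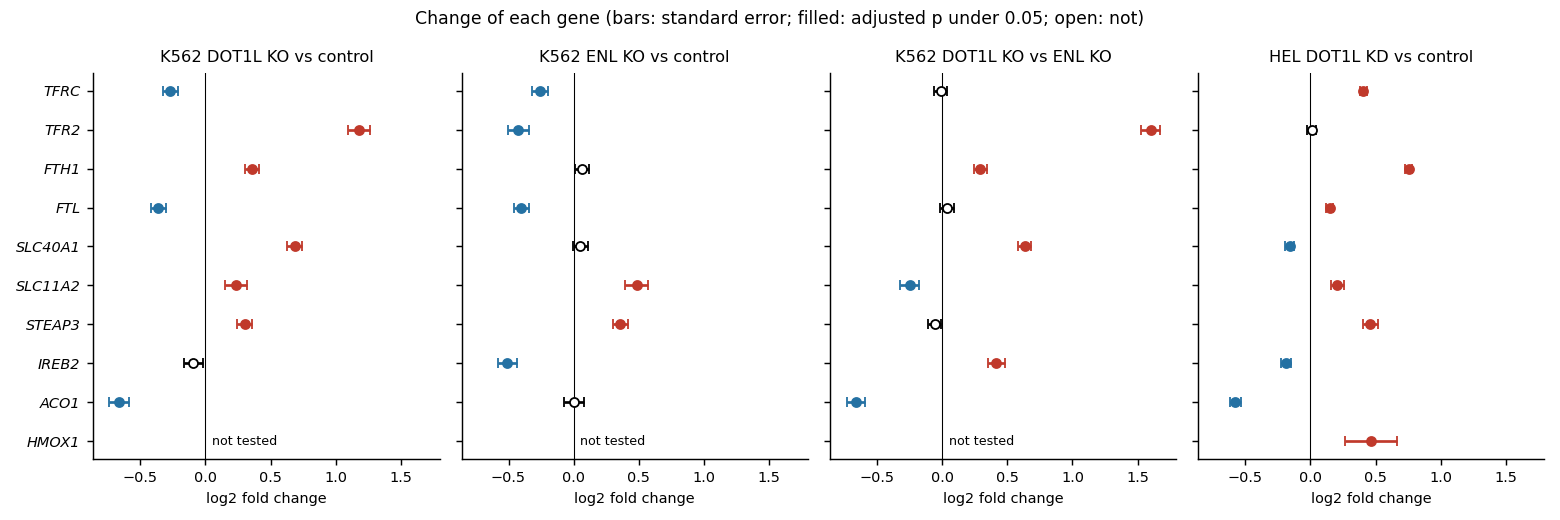
Log2 fold change of each gene in 4 comparisons, with bars for the standard error; filled red points are higher and filled blue points lower at an adjusted p under 0.05, open points did not pass, and HMOX1 was not tested in K562. In the DOT1L knockout against control TFR2 lies farthest from 0, at 1.17, and ACO1 lies left of 0 after DOT1L loss in both lines but at 0 without ENL.

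TFRC, the receptor that brings transferrin iron into erythroid cells, fell in both K562 knockouts and rose in HEL after DOT1L knockdown. The gene is on the minus strand at chr3:196049284-196082161 (GRCh38). Its levels were 2233 and 2394 CPM in the K562 controls, 1855, 2020.5 and 1885 CPM in the DOT1L knockout, and 1860, 1911 and 2034 CPM in the ENL knockout. All 6 knockout libraries were below both controls. TFRC fell by 0.27 ± 0.058 on the log2 scale (± SE) without DOT1L (1.20-fold; adjusted p = 0.001647) and by 0.26 ± 0.058 without ENL (adjusted p = 0.002991); without the second control library the latter was -0.21 with adjusted p = 0.05279, and over all 16 alternative settings its adjusted p ran from 5.147e-06 to 0.05279. The knockouts did not differ detectably from each other (log2 difference -0.011 ± 0.052, adjusted p = 0.8782). In HEL the levels were 1197 and 1196 CPM in controls and 1586 and 1584 CPM after knockdown, without overlap. That rise was 1.33-fold (log2 0.41 ± 0.027, adjusted p = 6.654e-19).

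TFR2, a transferrin receptor paralog expressed in liver and erythroid cells, where it associates with the erythropoietin receptor, had the largest change of the 9 members tested in the DOT1L knockout, and moved the other way in the ENL knockout. The gene lies on the minus strand at chr7:100620416-100641550. Its level was 143 and 127 CPM in K562 controls, and 326, 291 and 297 CPM without DOT1L. In the ENL knockout it was 112, 98.7 and 91.3 CPM, so that the 3 groups were fully separated with the knockouts on opposite sides of the controls. TFR2 rose 2.26-fold without DOT1L (log2 1.17 ± 0.085, adjusted p = 7.903e-08) and fell 1.34-fold without ENL (log2 -0.42 ± 0.083, adjusted p = 0.00113). The direct difference between the knockouts was 3.03-fold (SE 0.075 on the log2 scale, adjusted p = 5.573e-10). In HEL the controls at 201 and 195 CPM overlapped the knockdown libraries at 197 and 202 CPM, and no change was detected (log2 0.0094 ± 0.037, adjusted p = 0.8464).

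STEAP3, the endosomal ferrireductase that turns ferric into ferrous iron, rose in all 3 comparisons with a control. It lies on the plus strand at chr2:119223808-119265651. K562 control libraries held 74.9 and 72.0 CPM, the DOT1L knockout 89.2 to 91.8 CPM and the ENL knockout 91.0 to 97.3 CPM, with no overlap with controls. The log2 fold changes were 0.30 ± 0.058 (adjusted p = 0.000674) and 0.36 ± 0.058 (adjusted p = 0.0002525). In HEL it rose 1.37-fold, from 59.1 and 53.9 to 74.8 and 80.6 CPM (adjusted p = 1.019e-09). STEAP3 shares 500 exonic bases with STEAP3-AS1 on the opposite strand, a row that held at most 5 counts in any library; use of strand in the counting is not given in the sources used here.

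SLC11A2, the divalent metal transporter that carries ferrous iron out of the endosome, also rose, and more without ENL than without DOT1L. It lies on the minus strand at chr12:50979783-51028275. It stood at 46.7 and 49.3 CPM in K562 controls, 53.1 to 58.3 CPM without DOT1L and 62.2 to 75.1 CPM without ENL. The rise without ENL was 1.40-fold (log2 0.48 ± 0.085, adjusted p = 0.0004906) and was larger than the one without DOT1L (log2 -0.25 ± 0.074 for DOT1L minus ENL knockout, adjusted p = 0.01082; -0.16 without the third ENL knockout library). The rise without DOT1L (log2 0.23 ± 0.084, adjusted p = 0.03313) did not pass without the first or the second control library (log2 0.19 and 0.27) or without the second or the third DOT1L knockout library (0.21 and 0.22), and its adjusted p over 16 alternatives ran from 0.009822 to 0.1993. In HEL the levels were 72.2 and 73.4 CPM in controls and 83.5 and 84.6 CPM after knockdown (log2 0.21 ± 0.051, adjusted p = 0.0004687). With DESeq2 the HEL value was 0.20 with adjusted p = 0.05382, in a range of 5.215e-06 to 0.05382 over 10 alternatives.

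The ferritin chains moved apart in the K562 DOT1L knockout and rose together in HEL. FTH1, the heavy chain that carries the ferroxidase site, lies on the minus strand at chr11:61964285-61967660. Its level was 1629.95 and 1629.85 CPM in K562 controls and 2131, 2132 and 1991 CPM without DOT1L, all 3 above the controls. In the ENL knockout the values were 1731, 1760 and 1613 CPM, on both sides of the controls. FTH1 rose 1.28-fold without DOT1L (log2 0.36 ± 0.055, adjusted p = 0.0001159), and the ENL knockout gave 0.062 ± 0.055 (adjusted p = 0.3944). The DOT1L knockout was above the ENL knockout by 0.29 ± 0.049 (adjusted p = 0.0001502). In HEL, FTH1 had the largest rise of the 10 members, from 411 and 426 CPM to 711 and 699.9 CPM (1.69-fold, log2 0.75 ± 0.030, adjusted p = 4.657e-28).

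FTL, the light chain that aids iron core formation and the mRNA that carries the element printed above, lies on the plus strand at chr19:48965309-48966879. Its K562 levels were 2195 and 2473 CPM in controls, 1830, 1853 and 1769 CPM without DOT1L, and 1756, 1847 and 1696 CPM without ENL. Every knockout library was below both controls. FTL fell by 0.36 ± 0.059 without DOT1L (1.28-fold; adjusted p = 0.0001945) and by 0.40 ± 0.059 without ENL (1.32-fold; adjusted p = 0.0001093), and no difference between the knockouts was detected (0.042 ± 0.053, adjusted p = 0.5215). In HEL it rose 1.11-fold, from 1289 and 1328 CPM to 1432 and 1473 CPM (adjusted p = 5.138e-06). The translation block that the iron regulatory proteins exert through such an element is not seen by RNA counts. FTH1 shares 179 exonic bases with BEST1 on the opposite strand, a row of at most 88 counts, and both ferritin genes have many processed pseudogenes. Of the numbered ferritin pseudogene rows in the tables, FTH1P3 held 5 to 21 counts, FTH1P18 at most 4 and FTLP10 none, so how reads of near-identical copies were assigned is uncertain.

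SLC40A1 (ferroportin), the only known iron exporter of vertebrate cells, rose without DOT1L in K562 and fell slightly in HEL. It lies on the minus strand at chr2:189560590-189580811. The K562 levels were 61.2 and 59.2 CPM in controls, 95.7, 96.1 and 98.4 CPM in the DOT1L knockout, and 63.4, 60.8 and 62.96 CPM in the ENL knockout. The 3 DOT1L knockout libraries stood above all 5 others, and the ENL knockout overlapped the controls. SLC40A1 rose 1.61-fold without DOT1L (log2 0.68 ± 0.058, adjusted p = 3.837e-07), and the value without ENL was 0.051 ± 0.058 (adjusted p = 0.5198). The DOT1L knockout was 1.55-fold above the ENL knockout (adjusted p = 1.408e-07). In HEL it fell from 315 and 328 CPM to 288.4 and 287.8 CPM (log2 -0.16 ± 0.033, adjusted p = 5.097e-05), and upper-quartile scaling gave -0.085.

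The sensors changed in different K562 knockouts, and both fell in HEL. ACO1 fell after loss or depletion of DOT1L in both lines and was not detectably changed without ENL. IREB2 fell without ENL and in HEL, and its change in K562 without DOT1L did not pass. ACO1, which is a cytosolic aconitase when it holds an iron-sulfur cluster and an RNA-binding protein when it does not, lies on the plus strand at chr9:32384603-32450834. Its level was 51.1 and 52.0 CPM in K562 controls, 34.9, 32.3 and 30.3 CPM without DOT1L, and 54.4, 49.7 and 50.3 CPM without ENL. All 3 DOT1L knockout libraries were below the 5 others. The fall was 1.58-fold against control (log2 -0.66 ± 0.076, adjusted p = 7.768e-06) and 1.58-fold against the ENL knockout (adjusted p = 2.058e-06), and the ENL knockout itself gave -0.0010 ± 0.076 (adjusted p = 0.9956). In HEL, ACO1 fell from 174 CPM in each control library to 116 and 118 CPM (1.49-fold, log2 -0.57 ± 0.041, adjusted p = 1.594e-17).

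IREB2, the iron regulatory protein whose amount is set by degradation through FBXL5 when iron is plentiful, lies on the plus strand at chr15:78437431-78501456. The K562 levels were 173 and 191 CPM in controls, 159, 183 and 169 CPM without DOT1L, and 121, 127 and 136 CPM without ENL. The ENL knockout libraries were the 3 lowest, and the DOT1L knockout overlapped the controls. IREB2 fell 1.42-fold without ENL (log2 -0.51 ± 0.074, adjusted p = 9.29e-05), and the value without DOT1L was -0.093 ± 0.073 (adjusted p = 0.3118). The DOT1L knockout was above the ENL knockout by 0.42 ± 0.066 (adjusted p = 0.0001072). In HEL it went from 222 and 217 CPM to 183 and 202 CPM, a fall of 0.19 ± 0.039 (adjusted p = 4.764e-05). That value was -0.12 without the first knockdown library, and -0.12 with upper-quartile scaling.

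HMOX1 (haem oxygenase 1), the inducible enzyme that opens the haem ring and frees its iron, was hardly detected in K562. The gene lies on the plus strand at chr22:35381067-35394214. It had 0 counts in both controls, 1 count in a single DOT1L knockout library and 1 count in a single ENL knockout library. A count of 0 allows up to 3 counts, or 0.136 to 0.146 CPM in the K562 libraries with 0 counts. This limit covers counting error only, and no K562 test was made. In HEL the controls held 47 and 51 counts and the knockdown libraries 69 and 65, that is 3.75 and 4.05 against 5.48 and 5.28 CPM. The groups did not overlap and the difference passed the test (log2 0.46 ± 0.20, adjusted p = 0.04415). It did not pass with DESeq2 (adjusted p = 0.3174), without the filter on low counts (0.05602) or after leaving out any 1 of the 4 libraries (0.08757 to 0.1764), in a range of 0.01921 to 0.3174 over 10 alternatives.

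Ratios of per-length levels within a library remove the scaling between libraries. The ratio of FTH1 to FTL was 0.497 ± 0.0419 in K562 controls (SD, n = 2), 0.812 ± 0.0141 in the DOT1L knockout and 0.683 ± 0.0137 in the ENL knockout (n = 3 each). It was 0.227 ± 0.000733 in HEL controls and 0.344 ± 0.0108 after knockdown (n = 2 each). In both lines and all 3 comparisons the perturbed libraries thus lay above the controls, without overlap, although FTL fell in K562 and rose in HEL. The ratio of the receptor TFRC to FTH1 was lower in each perturbed group than in its control: 0.214 ± 0.0103 and 0.265 ± 0.0243 against 0.329 ± 0.0162 in K562, and 0.521 ± 0.00551 against 0.664 ± 0.0164 in HEL. Here too the libraries did not overlap.

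The ratio of the receptor paralogs TFRC to TFR2 was 9.70 ± 1.27 in K562 controls and 10.9 ± 1.58 in the ENL knockout, with overlap, and 3.56 ± 0.352 in the DOT1L knockout. The DOT1L knockout libraries ran from 3.20 to 3.91. In HEL it was 3.40 ± 0.0676 in controls and 4.47 ± 0.0816 after knockdown. Ratios are not compared between the lines. Fragments were counted in K562 and reads in HEL, and a ratio within a library need not remove that difference. The ratio of the sensors IREB2 to ACO1 was 1.70 ± 0.0983 in K562 controls, 2.53 ± 0.299 without DOT1L and 1.20 ± 0.121 without ENL. It moved to opposite sides of the controls in the knockouts, without overlap. In HEL it was 0.607 ± 0.00952 in controls and 0.793 ± 0.0458 after knockdown. These ratios are descriptions and were not tested.

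**Figure D3:**
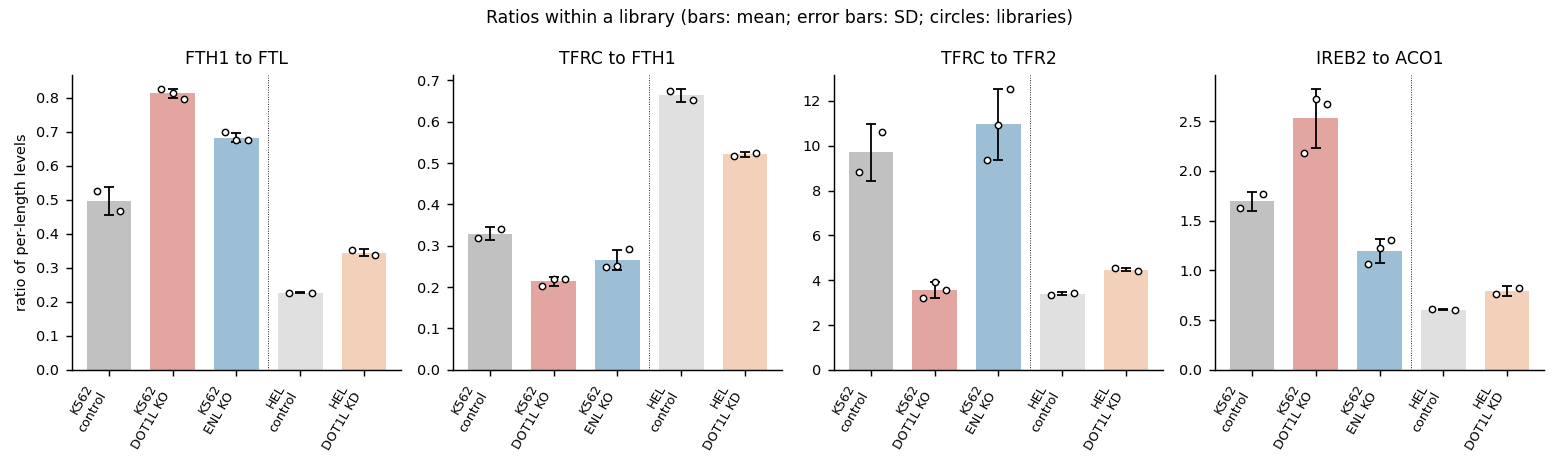
Ratios of per-length levels (CPM per kilobase) within each library for 4 gene pairs; bars are group means, error bars are SDs, circles are libraries, every axis starts at 0, and the dotted line parts K562 from HEL. FTH1 to FTL is higher in each perturbed group than in its control (0.812 and 0.683 against 0.497 in K562, 0.344 against 0.227 in HEL), and TFRC to TFR2 is low in the DOT1L knockout (3.56).

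A joint fit of the 9 libraries from both lines tested whether the change after DOT1L loss or depletion differed between HEL and K562. It differed for 5 of the 10 members in the fit, against 38.9% of 15367 genes. HMOX1 was among those that did not pass (adjusted p = 0.5577), and no difference is given for it because K562 libraries held 0 or 1 count. TFRC, FTH1 and FTL changed more upward in HEL, with differences (HEL minus K562) of 0.69 ± 0.069, 0.42 ± 0.067 and 0.53 ± 0.072 on the log2 scale (adjusted p = 5.735e-08, 3.554e-05 and 4.717e-06 by the edgeR quasi-likelihood test). TFR2 and SLC40A1 changed more upward in K562, with differences of -1.15 ± 0.089 and -0.82 ± 0.073 (adjusted p = 1.347e-09 and 9.423e-09). For TFRC, FTL and SLC40A1 the changes passed the test with opposite signs in the lines. No difference was detected for ACO1 (0.11 ± 0.088, adjusted p = 0.3765), IREB2 (-0.078 ± 0.092, 0.5617), STEAP3 (0.18 ± 0.091, 0.1316) and SLC11A2 (-0.0084 ± 0.090, 0.9998). The line, the method of depletion (knockout or knockdown) and the counting of fragments or reads go together and cannot be told apart.

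The genes whose pattern was most like that of a member were sought by Pearson correlation of log2 CPM over the 12 libraries, centred within each line, among 8985 genes with at least 5 CPM on average in each line. Closest to TFRC were SUCLG2, a subunit of succinyl-CoA ligase (r = 0.971), the ETS factor ELK3 (r = 0.954) and SEL1L3 (r = 0.947). For FTH1 they were CD52 (r = 0.987), the membrane linker EZR (r = 0.985) and the mitochondrial carrier SFXN3 (r = 0.984). ELK3 had the TFRC pattern at a larger size, with log2 fold changes of -1.15 without DOT1L, -1.30 without ENL and 1.25 in HEL. The points share libraries and depth, and the values are descriptions. For HMOX1 no such search could be made, as it was not tested in K562.

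Other genes of iron handling were taken from 5 lists, whose counts are read against the 51.1%, 41.0% and 55.0% of all genes tested that passed without DOT1L, without ENL and in HEL. The list of 22 other transport genes had 17 that entered the K562 fit and 14 that entered the HEL fit. Without DOT1L 7 rose and 5 fell (median log2 fold change -0.060), without ENL 4 rose and 7 fell (median -0.17), and in HEL 7 rose and 3 fell (median 0.15), that is 12 of 17, 11 of 17 and 10 of 14 called. TF, which encodes the plasma iron carrier transferrin itself, rose without DOT1L from 1.71 ± 0.0537 CPM (n = 2) to 21.2 ± 1.74 CPM (n = 3; log2 3.63 ± 0.15, adjusted p = 4.399e-10). The metal importer SLC39A8 rose there from 46.5 ± 4.47 to 128 ± 12.7 CPM (log2 1.46). Without ENL the related importer SLC39A14 fell from 136 ± 0.654 to 46.4 ± 2.32 CPM (log2 -1.55), and the ferric reductase CYBRD1 fell from 21.3 ± 1.08 to 12.1 ± 0.298 CPM (log2 -0.82). SLC39A14 also fell without DOT1L (log2 -0.45). In HEL, BMP6, an inducer of hepcidin, fell from 32.9 ± 1.31 to 15.9 ± 1.90 CPM (log2 -1.05), and SLC46A1, a folate and haem transporter, rose from 4.81 ± 0.935 to 7.40 ± 1.595 CPM (log2 0.62).

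Of 11 genes for iron chaperones, ferritin release and the FBXL5 ligase, 9 were tested. None rose and 3 fell without DOT1L, 2 rose and 3 fell without ENL, and 2 rose and 3 fell in HEL, with medians of -0.080, 0.038 and -0.054. The 3, 5 and 5 of 9 called were below the share of all genes without DOT1L, above it without ENL and close to it in HEL. Without DOT1L the cullin CUL1 fell by 0.72 ± 0.066 and the autophagy receptor TAX1BP1 by 0.55 ± 0.055 on the log2 scale. NCOA4, the receptor that delivers ferritin to lysosomes, rose without ENL from 362 ± 14.3 to 455 ± 18.8 CPM (log2 0.33), and the ubiquitin ligase HERC2 fell (log2 -0.51). In HEL the iron chaperone PCBP1 fell (log2 -0.25) and CUL1 rose (log2 0.16), the opposite sign to the K562 knockout, and the change of CUL1 differed between the lines (HEL minus K562 0.90 ± 0.085, adjusted p = 3.121e-08 in the joint fit).

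All 30 genes of mitochondrial iron import and iron-sulfur cluster assembly were tested. Without DOT1L 7 rose and 7 fell, without ENL 7 rose and 1 fell, and in HEL 11 rose and 1 fell, with medians of 0.040, 0.12 and 0.13. The 14, 8 and 12 of 30 called were below the share of all genes in each comparison. SLC25A37 (mitoferrin 1), the erythroid mitochondrial iron importer, rose without DOT1L from 197 ± 9.93 to 439 ± 26.6 CPM (log2 1.15 ± 0.062, adjusted p = 4.177e-09), and the ferredoxin FDX1 fell from 35.9 ± 2.58 to 16.3 ± 1.72 CPM (log2 -1.14). Without ENL the ferredoxin reductase FDXR rose from 81.0 ± 3.63 to 186 ± 13.6 CPM (log2 1.20), and the cytosolic electron donor NDOR1 rose by 0.66. In HEL the mitochondrial transporter ABCB10, a partner of mitoferrin 1, rose by 0.50 and the cluster assembly factor ISCA2 fell by 0.59. ABCB10, FDXR and NDOR1 also rose without DOT1L (log2 0.82, 0.64 and 0.43), and NDOR1 rose in HEL as well (log2 0.50).

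Among 18 genes of haem breakdown and of the NRF2 and BACH1 regulators and targets, 3 rose and 6 fell in each K562 knockout, and 7 rose and 4 fell of 16 tested in HEL, with medians of -0.088, -0.083 and 0.12. Called were 9 of 18 in each knockout and 11 of 16 in HEL. OSGIN1, an oxidative stress gene, fell from 10.3 ± 1.20 CPM to 2.93 ± 0.288 CPM without DOT1L and to 6.39 ± 0.368 CPM without ENL (log2 -1.81 and -0.68). The small MAF factor MAFF fell without DOT1L (log2 -1.49), and the cystine importer SLC7A11 fell without ENL from 35.1 ± 1.70 to 16.6 ± 2.49 CPM (log2 -1.08). In HEL, where HMOX1 was measurable, KEAP1, the adaptor that targets NRF2 for degradation, fell from 126 ± 0.443 to 82.3 ± 3.75 CPM (log2 -0.62), and MAFK rose (log2 0.50).

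Of 4 other mRNAs known to carry an iron-responsive element, 2 rose and 2 fell in each K562 knockout, and 2 rose and 1 fell in HEL, with medians of 0.69, 0.051 and 0.085. ALAS2, whose element is printed above, rose from 55.6 ± 4.45 CPM to 355 ± 7.36 CPM without DOT1L and to 158 ± 2.09 CPM without ENL (log2 2.67 ± 0.064 and 1.51 ± 0.062; adjusted p = 8.985e-12 and 5.764e-10). EPAS1 (hypoxia-inducible factor 2 alpha) rose as well, from 25.3 ± 2.06 to 73.7 ± 2.46 and 34.9 ± 2.19 CPM (log2 1.54 and 0.47). The phosphatase gene CDC14A and the kinase gene CDC42BPA fell in both knockouts (log2 -0.21 and -0.16 without DOT1L, -0.36 and -0.38 without ENL). No gene thus lay near the median of 0.69 without DOT1L. In HEL CDC14A fell (log2 -0.58) and CDC42BPA rose (log2 0.20).

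**Figure D4:**
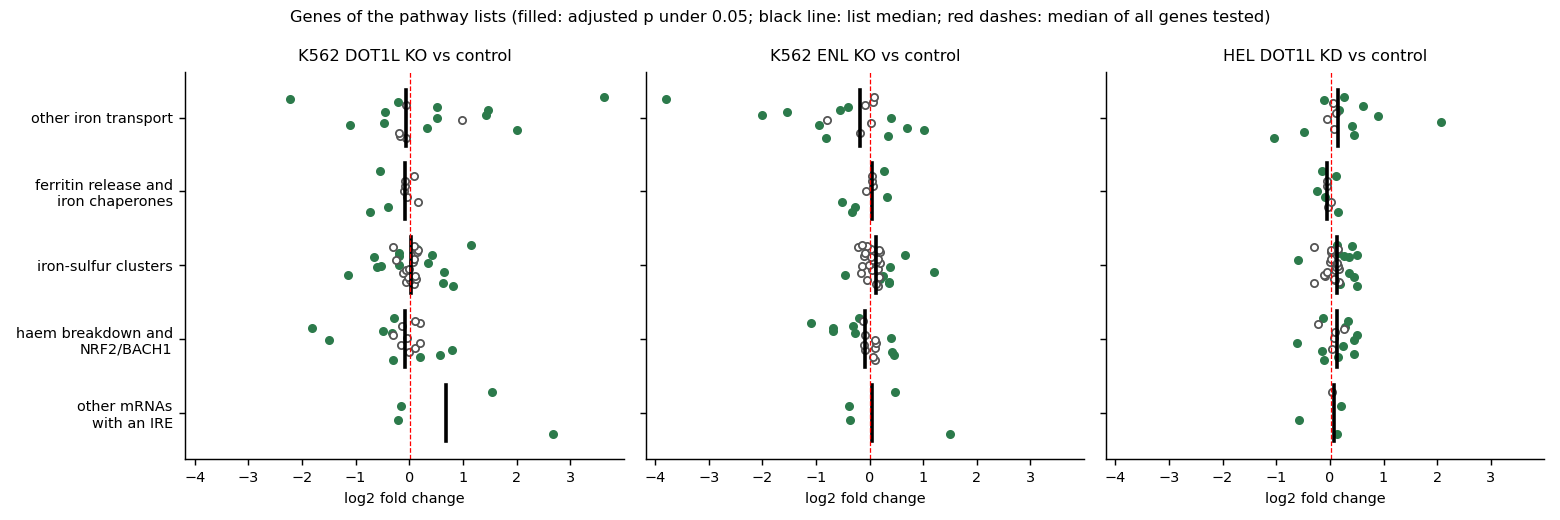
Log2 fold change of each tested gene of 5 iron-related lists in the 3 comparisons with a control; filled points passed an adjusted p of 0.05, open points did not, black lines are list medians and the red dashed line is the median of all genes tested. Medians of the other lists lie between -0.17 and 0.15, and single genes lie far outside, such as TF at 3.63 without DOT1L. The median of the 4 mRNAs with an element is 0.69 without DOT1L, with no gene near it. There ALAS2 and EPAS1 lie at 2.67 and 1.54, and CDC14A and CDC42BPA at -0.21 and -0.16.

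The summed level of erythroid markers moved with several of these groups. All 6 (GATA1, KLF1, TAL1, EPOR, HBG1, HBG2) were above the limit of 3 counts in every group, and their summed level was 2883 to 3116 CPM in K562 controls, 4357 to 4653 without DOT1L and 3435 to 3735 without ENL. In HEL it was 3927 to 4009 CPM in controls and 5547 to 6232 after knockdown. The fetal globins HBG1 and HBG2 made up 73.9% to 81.9% of the sum in every library. All 6 markers rose without DOT1L and 5 without ENL, where HBG1 did not pass (log2 0.14). In HEL 4 rose, while GATA1 (log2 -0.057) and EPOR (log2 0.19) did not pass. Megakaryocyte markers summed to 7.30 to 9.93 CPM in K562 controls and 29.4 to 36.8 CPM in the knockouts, with 2 of 6 above the limit and GP1BA at 0 throughout K562; in HEL all 6 were present, at 2605 to 2658 CPM in controls and 2073 to 2077 after knockdown. The monocyte list summed to 33.3 to 36.0 CPM in K562 controls, 292 to 323 without DOT1L and 19.5 to 21.1 without ENL. LYZ made up nearly all of this, at 310 CPM without DOT1L, while CD14, CSF1R and FCGR3A had means of 0.389, 0.431 and 0.217 CPM there. T cell markers summed to 78.5 to 78.8 CPM, 19.8 to 24.7 and 116 to 127 in the same order, from CD3D and CD3G, with CD2 at 0.0236 CPM in controls. B cell markers stayed at or under 2.51 CPM with MS4A1 at 0 in every group, and epithelial markers ran from 306 to 349 CPM in K562, with KRT5 at 0, and up to 1.22 CPM in HEL. In bulk RNA, a change in the share of cells of a type and a change in RNA per cell cannot be told apart. The part of these shifts in the changes of the iron genes was not tested.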

How the data were processed

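RNA-seq counts were used from 13 of the 74 samples of the series; the other 61 (ChIP-seq, ATAC-seq, PRO-seq and other assays) were not used here. The deposited tables hold raw counts per gene, fragments for K562 and reads for HEL, beside a column of the exonic length of each gene (another unit, in bases); the authors' counting is not described further than this: the submitters' processing notes list fastp 0.13.1, Bowtie2 2.3.4.1, HISAT2 2.1.0, deepTools and featureCounts 1.6.1, and builds hg38 and hg19, without roles. Per the labels' protocols, libraries were poly(A)-selected and made with dUTP strand marking, while use of strand in counting is not given in the sources used here. Exon positions per the file headers overlapped GRCh38 genes of RefSeq for all 10 members. Genes were kept by edgeR's filterByExpr (at least 10 counts, 15 in all), scaled by TMM and tested with edgeR 4.0.16 (glmQLFit, glmQLFTest) in R 4.3.3, with Benjamini-Hochberg adjustment over all genes tested and a threshold of 0.05. All 8 distinct K562 libraries shared 1 fit, the 4 HEL libraries another, and the interaction a joint one of 9 libraries. The standard error is the log2 fold change divided by the root of the F statistic. Identical control columns of K562 were counted once. The count test was also run on simulated counts. These had far fewer changed genes than the present data and the same spread in both lines, and the joint fit was not simulated, so nothing is concluded from them.

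Named beside the members were, from each list and comparison with a control, the 2 genes of largest absolute log2 fold change among those past the threshold with a mean of 5 CPM and no overlap of the groups, and for TFRC, FTH1 and HMOX1 the 3 most correlated genes (log2 of CPM plus 0.5). A gene named for 1 comparison may also have passed in others. Marker genes with values were named after their values were seen. Members and lists were chosen with earlier results of these data known. A few genes of the lists are not reported here, and the counts and medians leave them out. Alternatives were RLE, upper-quartile and library-size scaling, DESeq2 1.42.0, no filter, the 2 groups alone, each column as a sample, the replicate number as a block, and each library left out. The same replicate numbers occur in the K562 groups. All 7 same-numbered pairs had a positive correlation of deviations (0.072 to 0.435), 5 of them over 0.1. The K562 control library that stands for columns 2 and 3 was counted as number 2, although its own number is not known. It gave 0.072 with ENL knockout library 2 and 0.229 with ENL knockout library 3. The deviations of the 2 control libraries mirror each other (0.267 and -0.267 with DOT1L knockout library 1), so pairs with controls are not independent values. Differently numbered K562 pairs ran from -0.356 to 0.229. The numbers were not taken as pairing in the main fit, so an effect shared by replicate number is not removed there.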

Additional observations from a re-analysis of the deposited data

Results flagged for a closer look

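Among the 10 iron genes in the joint fit, 5 responded differently to DOT1L loss or depletion in HEL and K562, by the test of the difference itself. Of all 15367 genes in that fit, 38.9% passed the same test. The differences (HEL minus K562, log2) were 0.69 for TFRC, -1.15 for TFR2, 0.42 for FTH1, 0.53 for FTL and -0.82 for SLC40A1, with adjusted p-values of 5.735e-08, 1.347e-09, 3.554e-05, 4.717e-06 and 9.423e-09. All 5 kept their sign and passed in each of 15 alternatives, with ranges of 0.65 to 0.76, -1.21 to -1.06, 0.36 to 0.44, 0.45 to 0.63 and -0.86 to -0.79. The line goes together with knockout or knockdown and with fragment or read counting, which cannot be told apart.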

How the results depend on the processing

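Over 16 alternative settings for each K562 comparison, 10 for HEL and 15 for the interaction, the number of members called stayed at 7 to 8 for the DOT1L knockout, 5 to 7 for the ENL knockout, 6 between the knockouts, 7 to 9 in HEL and 5 to 6 for the interaction. Leaving out each library gave 7 to 8, 5 to 6, 6, 8 and 5. Of 667 values for single members, 653 kept their side of the threshold, 12 lost the call and 2 gained it. Of the 653, 18 changed sign, all of them small values past the threshold in neither setting (ACO1 in the ENL knockout, TFRC between the knockouts, TFR2 in HEL, SLC11A2 and IREB2 in the interaction), and no called value changed sign. The lost calls were SLC11A2 in the DOT1L knockout and TFRC in the ENL knockout without single libraries, SLC11A2 in HEL with DESeq2, and HMOX1 in HEL, as given with their values above. Where a library was left out, fewer samples were fitted; elsewhere the cause was not tested. The replicate block left 8 and 6 calls for the DOT1L knockout and between the knockouts and 9 in HEL, and gave 7 for the ENL knockout, where FTH1 passed (log2 0.096, adjusted p = 0.01646, in a range of 0.01646 to 0.7355), and 6 for the interaction, where STEAP3 passed (0.19, adjusted p = 0.04874, in a range of 0.04874 to 0.4871). With this block the calls over all genes went from 7305 to 8340, 5863 to 7021, 8606 to 9605 and, in HEL, 6951 to 6903; not every K562 library correlated best with its own number, and the HEL pairs gave -0.0069. The block took the K562 control library that stands for columns 2 and 3 as number 2, although its own number is not known. DESeq2 called 4373 genes in HEL against 6951. HMOX1 in K562, at 0 or 1 count a library, had too few counts for a test.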
